A study of Mus musculus with 4 samples.

Results

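Cell cycle genes were followed in spatial transcriptomes of mouse kidney 24 h after ischemia. They comprised 49 genes, taken by symbol from the 32285 genes counted in every section: 4 regulators of the G1/S transition, 25 genes of DNA replication and S phase, 18 genes of mitosis and 2 proliferation-associated genes, Stmn1 and Hmgb2. The members were listed by gene name and function, with earlier results of these data known. Visium captures polyadenylated RNA from a tissue section on an array of barcoded spots, and a spot can hold several cells of different types or part of a cell. Molecules were counted by their unique molecular identifiers (UMIs), per gene and spot. Levels are given as counts per 1000000 UMIs (CPM).

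The 4 sections analysed here were cut at 10 µm from left kidneys of male wild-type C57BL/6J mice aged 7 to 8 weeks. The 2 normal sections (labelled ctrl) came from control kidneys, and the 2 ischemic sections from kidneys given 30 min of bilateral ischemia followed by 24 h of reperfusion. No transgene or further agent was given in the labels. The sources used here do not tie sections to mice. Sections were therefore the unit of comparison, and p-values measure only the spread between these sections, which may be technical.

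A section held between 25957128 and 44528078 UMIs over 2401 to 2682 tissue spots. Marker genes assigned spots to cortex, outer stripe, inner stripe, inner medulla or pelvis, where both stripes make up the outer medulla, as regions and not as cell types. The 6 markers of injured tubules all rose in the ischemic sections, from a sum of 77.6 and 114 CPM in the normal sections to 4493 and 5010 CPM. In the same sections all 7 neutrophil markers rose, from 2.55 and 3.41 to 170.1 and 168 CPM, and 5 of 6 T cell markers fell, from 12.8 and 22.9 to 3.47 and 3.60 CPM. Of 8 macrophage and monocyte markers 0 rose and 5 fell, and of 4 B cell markers 2 were tested and 2 fell. Among all genes tested 31.0% were called higher and 29.7% lower, by the test given below. In sections, fewer cells of a type and less RNA per cell cannot be told apart.

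A cell enters the cycle when D and E cyclins with their kinases release E2F factors, which switch on the genes for origin licensing, the replication fork and nucleotide supply. Genes of mitosis are switched on later, in G2, by other complexes that act at CHR and CCAAT elements. In the adult kidney most tubular cells are quiescent, and surviving tubular cells are known to re-enter the cycle after ischemic injury. Genes of S phase and genes of mitosis therefore report different steps, and a tissue can hold much RNA of the former with little of the latter.

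The promoters of the members were searched for these elements. RefSeq promoter windows (GRCm38.p6, 250 bases before to 50 bases from the annotated start) were found for 39 of 49 members. An E2F site, searched as TTTGGCGC or TTTCCCGC on either strand, stood in the windows of 8 of 24 matched G1/S and S phase genes (33.3%) and of 0 of 14 matched core mitosis genes, against 1.80% of 27025 genes in the table. A CHR element, searched as TTTGAA on either strand, stood in those of 3 of 24 (12.5%) and 11 of 14 (78.6%), against 20.2% of all genes. A CCAAT box, searched as CCAAT on either strand, stood in those of 14 of 24 (58.3%) and 13 of 14 (92.9%), against 41.1%. A match describes letters in this window and does not show binding.

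The windows of 3 S phase genes and 3 mitosis genes are shown as examples of these letters. Mcm3 (chr1:20820263-20820562, minus strand), Mcm6 (chr1:128359656-128359955, minus strand) and Hells (chr19:38930740-38931039, plus strand) carry E2F letters. Cdk1 (chr10:69352863-69353162, minus strand), Ccnb2 (chr9:70421505-70421804, minus strand) and Mki67 (chr7:135716330-135716629, minus strand) carry CHR letters. Each is written 5′ to 3′ along the gene's strand, and capitals mark E2F matches in the former and CHR matches in the latter.
Mcm3: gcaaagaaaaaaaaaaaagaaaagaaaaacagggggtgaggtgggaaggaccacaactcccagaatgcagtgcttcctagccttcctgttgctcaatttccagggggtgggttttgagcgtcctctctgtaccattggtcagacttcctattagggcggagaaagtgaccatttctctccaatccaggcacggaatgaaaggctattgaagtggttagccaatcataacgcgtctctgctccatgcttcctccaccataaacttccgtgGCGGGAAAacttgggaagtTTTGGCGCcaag
Mcm6: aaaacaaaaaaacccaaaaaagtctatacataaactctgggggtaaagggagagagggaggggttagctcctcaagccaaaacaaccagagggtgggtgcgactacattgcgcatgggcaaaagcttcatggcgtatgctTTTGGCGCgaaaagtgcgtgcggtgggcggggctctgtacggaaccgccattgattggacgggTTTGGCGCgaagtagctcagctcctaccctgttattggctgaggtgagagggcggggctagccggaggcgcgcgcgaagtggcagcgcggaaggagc
Hells: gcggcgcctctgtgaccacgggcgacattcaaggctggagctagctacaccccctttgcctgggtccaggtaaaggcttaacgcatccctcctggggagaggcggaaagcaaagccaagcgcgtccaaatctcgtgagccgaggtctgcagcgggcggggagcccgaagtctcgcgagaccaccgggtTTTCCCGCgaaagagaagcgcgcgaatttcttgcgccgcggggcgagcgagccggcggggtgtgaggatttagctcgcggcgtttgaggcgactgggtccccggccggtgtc
Cdk1: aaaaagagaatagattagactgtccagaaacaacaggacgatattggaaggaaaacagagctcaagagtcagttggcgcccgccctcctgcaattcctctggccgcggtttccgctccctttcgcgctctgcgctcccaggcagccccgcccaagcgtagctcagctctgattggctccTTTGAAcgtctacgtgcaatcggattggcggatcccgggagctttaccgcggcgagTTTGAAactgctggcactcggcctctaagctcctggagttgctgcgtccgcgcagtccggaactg
Ccnb2: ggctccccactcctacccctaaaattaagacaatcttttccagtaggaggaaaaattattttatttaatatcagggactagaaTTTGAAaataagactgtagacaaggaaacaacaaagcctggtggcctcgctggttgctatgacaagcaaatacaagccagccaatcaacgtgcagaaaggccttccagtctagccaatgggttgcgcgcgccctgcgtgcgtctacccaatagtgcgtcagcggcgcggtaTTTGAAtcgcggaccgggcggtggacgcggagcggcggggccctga
Mki67: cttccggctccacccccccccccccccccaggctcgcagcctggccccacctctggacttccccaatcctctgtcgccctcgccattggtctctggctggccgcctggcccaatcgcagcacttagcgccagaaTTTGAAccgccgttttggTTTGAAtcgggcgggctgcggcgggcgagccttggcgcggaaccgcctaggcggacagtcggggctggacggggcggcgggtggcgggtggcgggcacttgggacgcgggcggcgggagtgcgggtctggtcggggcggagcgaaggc

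Most G1/S and S phase genes rose in the ischemic kidney, while most mitosis genes did not pass the test over whole sections. Of the 49 members, 31 were higher and 3 lower in ischemic than in normal sections, and 15 did not pass the threshold (edgeR quasi-likelihood test, Benjamini-Hochberg adjusted p under 0.05, 2 against 2 sections). All 49 passed the filter on low counts. Among all 15305 genes tested, 31.0% were higher and 29.7% lower, so calls were common throughout these sections. The median log2 fold change was 0.95 over the members and 0.04 over all genes tested. Of the 25 S phase genes 21 were higher and 1 lower, with a median of 1.28, and of the 18 core mitosis genes 6 were higher and 1 lower, with a median of 0.67. The share of higher mitosis genes was near that of all genes, so it is no result about them as a group. Mitosis genes summed to 791, 710, 989 and 876 UMIs in normal 1, normal 2, ischemic 1 and ischemic 2. S phase genes summed to 6623, 4981, 12378 and 10295, so calls of mitosis genes rest on fewer counts.

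**Figure D1:**
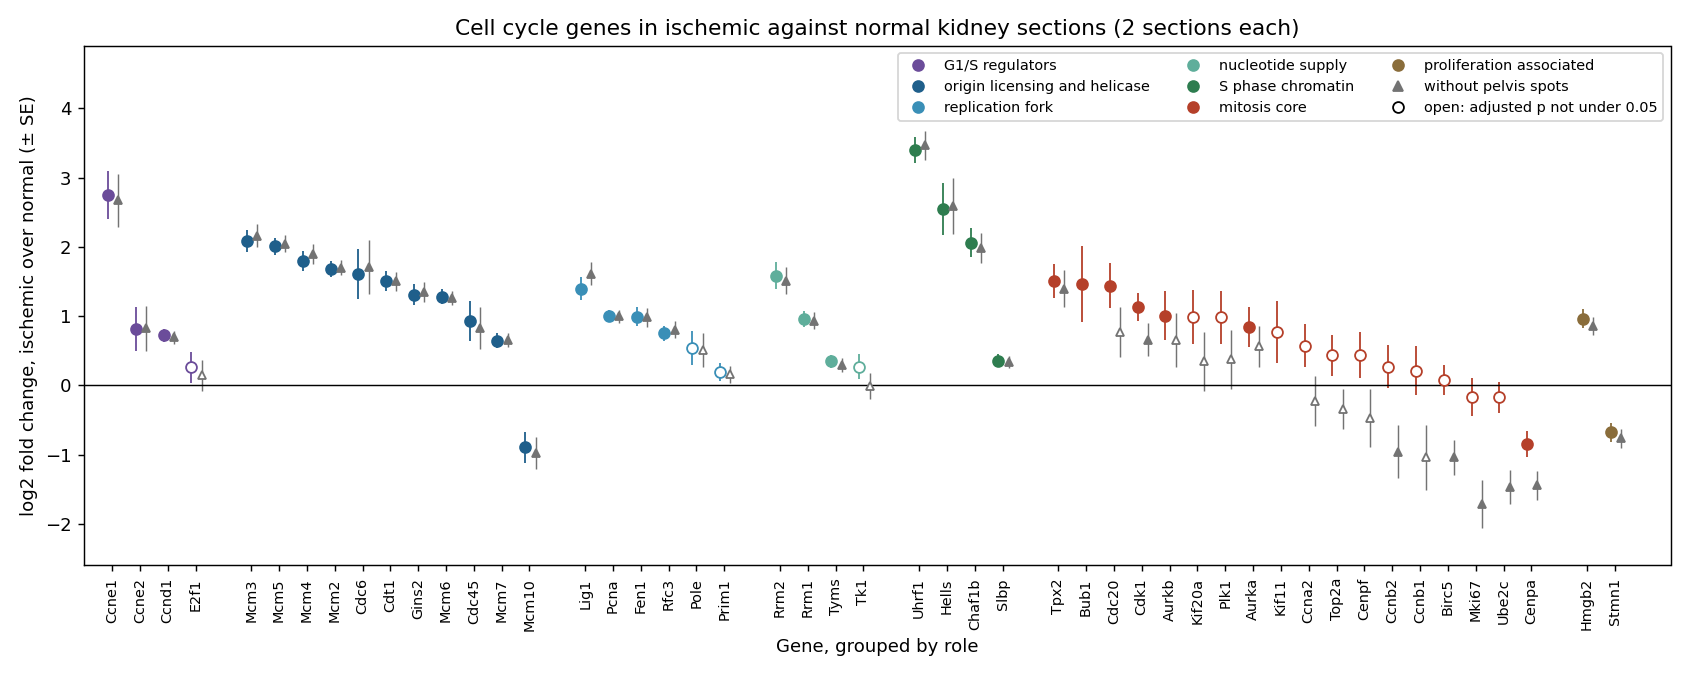
Log2 fold change (± SE) of each of the 49 members, ischemic over normal, in whole sections (circles, coloured by role) and with pelvis spots left out (grey triangles); open symbols did not pass an adjusted p of 0.05. S phase genes sit mostly above 0 and hardly move between circle and triangle, while many mitosis genes drop below 0 once pelvis spots are left out.

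The regulators of S phase entry were higher in ischemic sections for 3 of 4 genes. Levels of genes and of summed members are CPM with library sizes scaled by edgeR's TMM factors, unless called unscaled. Ccne1, which encodes cyclin E1, the partner of CDK2 at the start of S phase, stood at 0.407 and 0.217 CPM in normal sections 1 and 2 and at 2.38 and 1.99 CPM in ischemic sections 1 and 2. Its log2 fold change was 2.75 ± 0.35 (SE; edgeR adjusted p = 0.000141), from 15 and 6 UMIs against 81 and 57. Ccnd1, the cyclin D1 gene that couples growth signals to CDK4 and CDK6, measured 63.1 and 61.7 CPM in normal and 101 and 105 CPM in ischemic sections (log2 fold change 0.72 ± 0.10, edgeR adjusted p = 0.000262). Neither gene overlapped between conditions. Ccne2 was also higher, by 0.81 on the log2 scale, on 16 to 32 UMIs per section. E2f1, which encodes an E2F activator, stood at 1.90 and 1.92 CPM against 2.30 and 2.27 CPM and was not called (edgeR adjusted p = 0.333).

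Of the genes of origin licensing and the replicative helicase, 10 of 11 were higher and 1 lower. The MCM2 to MCM7 proteins form the ring that is loaded at origins and unwinds DNA, and all 6 genes rose. Mcm3 measured 2.41 and 2.93 CPM in normal and 11.2 and 11.3 CPM in ischemic sections, a log2 fold change of 2.08 ± 0.16 (edgeR adjusted p = 6.5e-06). Mcm5 measured 4.31 and 4.78 against 17.8 and 18.8 CPM (2.01 ± 0.12 on the log2 scale). Mcm4 measured 3.98 and 4.93 against 16.3 and 14.5 CPM (1.80 ± 0.15). In each of these genes both ischemic sections stood far above both normal sections. Mcm2 measured 6.15 and 6.52 against 20.7 and 19.9 CPM (1.68 ± 0.11). Mcm6 measured 12.9 and 11.4 against 30.0 and 29.4 CPM (1.28 ± 0.10). Mcm7 showed the smallest rise of the ring, 0.65 on the log2 scale.

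The loaders of the ring moved with it. Cdt1, which brings the ring to origins, measured 6.10 and 4.64 CPM in normal and 15.2 and 15.6 CPM in ischemic sections (log2 fold change 1.51 ± 0.15). Cdc6, which acts with it, had 11 and 14 UMIs in normal and 39 and 36 UMIs in ischemic sections, or 0.298 and 0.507 against 1.15 and 1.26 CPM (1.61 ± 0.36). Gins2 and Cdc45, parts of the active helicase, were higher by 1.31 and 0.93. Mcm10, which takes part in switching on the helicase, went the other way: 3.63 and 2.86 CPM in normal and 1.83 and 1.68 CPM in ischemic sections, with no overlap (log2 fold change -0.90 ± 0.23, edgeR adjusted p = 0.00782). Without ischemic section 2 its adjusted p was 0.0684.

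At the replication fork 4 of 6 genes were higher and 2 were not called. Pcna, the sliding clamp of the replicative polymerases, rose by nearly the same amount in both ischemic sections: 33.3 and 32.3 CPM in normal and 65.9 and 65.6 CPM in ischemic sections (log2 fold change 1.00 ± 0.09, edgeR adjusted p = 2.1e-05). Lig1, the ligase that joins Okazaki fragments, measured 3.06 and 3.26 against 7.77 and 8.86 CPM (1.40 ± 0.16). Fen1, the flap nuclease, and Rfc3, of the clamp loader, were higher by 0.99 and 0.75. Pole and Prim1, of the leading-strand polymerase and the primase, had log2 fold changes of 0.54 and 0.19 and did not pass the threshold.

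Nucleotide supply rose in 3 of 4 genes. Rrm2, the regulated subunit of ribonucleotide reductase, measured 2.44 and 3.41 CPM in normal and 9.22 and 8.13 CPM in ischemic sections (log2 fold change 1.59 ± 0.19, edgeR adjusted p = 0.000115). Rrm1, its partner, and Tyms, thymidylate synthase, were higher by 0.95 and 0.34. Tk1, thymidine kinase, measured 4.47 and 5.22 against 6.33 and 5.30 CPM and was not called (0.27 ± 0.17, edgeR adjusted p = 0.204). Without normal section 2 its adjusted p was 0.0489.

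All 4 genes of S phase chromatin rose, and Uhrf1 rose most of all 49 members. Uhrf1, which recruits the maintenance DNA methyltransferase to newly copied DNA, had 34 and 27 UMIs in normal and 360 and 269 UMIs in ischemic sections, or 0.922 and 0.978 against 10.6 and 9.39 CPM. This was a log2 fold change of 3.40 ± 0.19 (edgeR adjusted p = 1.1e-06). Hells, a chromatin remodeler of the same process, measured 0.244 and 0.652 against 2.56 and 2.44 CPM (2.54 ± 0.38). Chaf1b, a subunit of the chaperone that deposits histones behind the fork, measured 1.08 and 1.20 against 4.71 and 4.78 CPM (2.06 ± 0.21). Slbp, the histone mRNA binding protein, rose least, by 0.36.

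**Figure D2:**
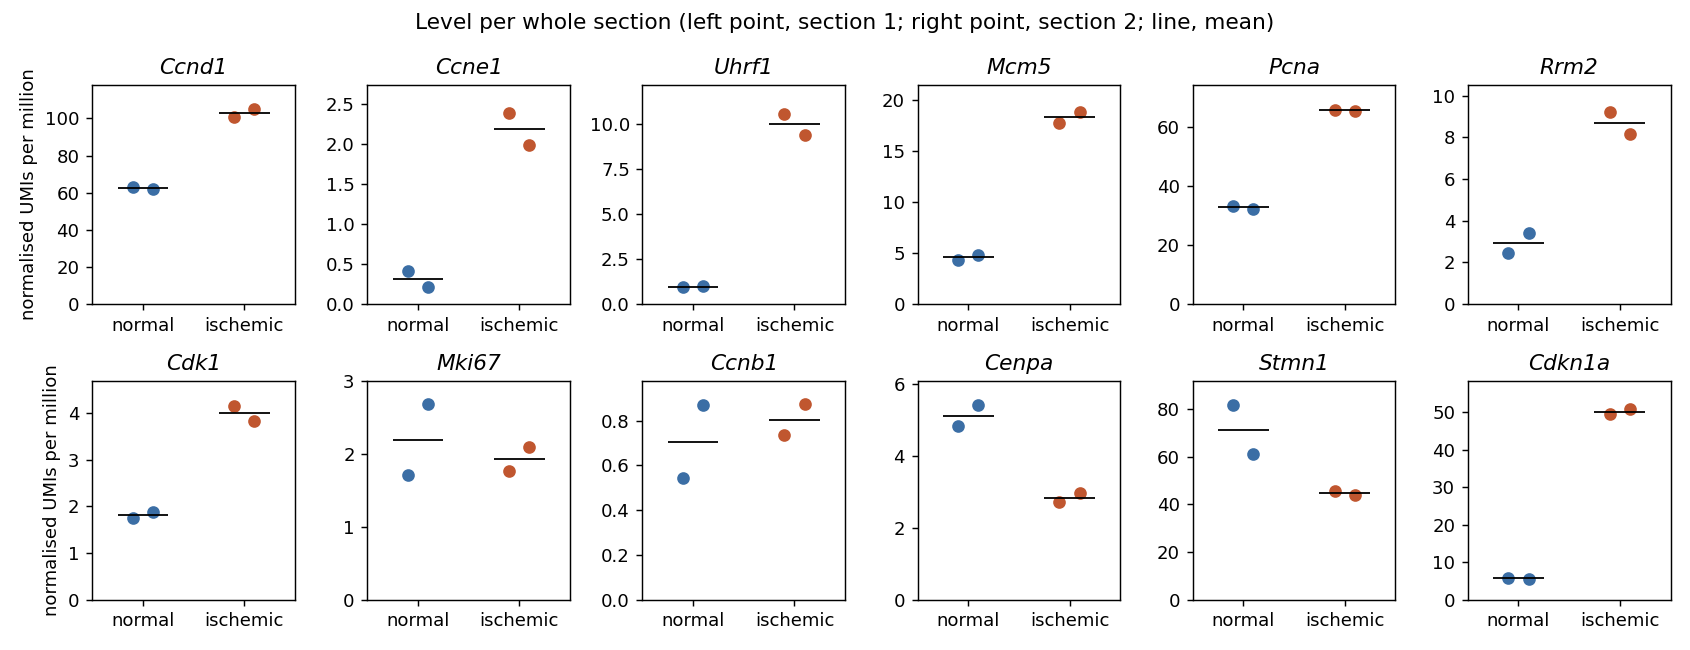
Levels of 12 genes in each whole section in CPM, normal in blue and ischemic in orange, with the mean of 2 sections as a line. The S phase genes and Cdkn1a are separate between conditions, while the points of Mki67 and Ccnb1 overlap.

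Mitosis genes did not move as a block over whole sections. Cdk1, the kinase that drives entry into mitosis, measured 1.76 and 1.88 CPM in normal and 4.15 and 3.84 CPM in ischemic sections (log2 fold change 1.13 ± 0.20, edgeR adjusted p = 0.00115). Tpx2, a spindle assembly factor, measured 1.00 and 1.12 against 2.71 and 3.35 CPM (1.51 ± 0.25). Cdc20, an activator of the anaphase-promoting complex, measured 0.623 and 0.543 against 1.295 and 1.92 CPM (1.44 ± 0.33). These were the clearest rises among the core mitosis genes. Bub1, a spindle checkpoint kinase, rose by 1.47 on only 3 and 5 UMIs against 11 and 11, or 0.0813 and 0.181 against 0.324 and 0.384 CPM. Its call (edgeR adjusted p = 0.0426) was lost without ischemic section 1 (0.169), without ischemic section 2 (0.246) and without normal section 1 (0.273), and with DESeq2 (0.261). Cdc20 lost its call without ischemic section 2 (edgeR adjusted p = 0.0664). Aurka and Aurkb, the Aurora kinases, made up the remaining rises, at 0.85 and 1.01.

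The usual proliferation markers were not called. Mki67, which encodes the Ki-67 antigen, measured 1.71 and 2.68 CPM in normal and 1.77 and 2.09 CPM in ischemic sections (log2 fold change -0.17 ± 0.28, edgeR adjusted p = 0.614). Top2a, topoisomerase II alpha, measured 1.19 and 1.70 against 1.59 and 2.30 CPM (0.43 ± 0.29, edgeR adjusted p = 0.227). Ccnb1, cyclin B1, measured 0.542 and 0.870 against 0.736 and 0.872 CPM (0.21 ± 0.35, edgeR adjusted p = 0.627). In all 3 genes the conditions overlapped. Without normal section 2 Top2a passed the threshold (0.66, edgeR adjusted p = 0.0450). Plk1 and Kif20a lay just outside the threshold at adjusted p of 0.05002 and 0.0519. Cenpa, the centromeric histone, was the core mitosis gene that fell: 4.82 and 5.40 CPM in normal and 2.71 and 2.97 CPM in ischemic sections (-0.85 ± 0.18, edgeR adjusted p = 0.00331).

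Stmn1 and Hmgb2, which are high in cycling cells but not particular to a phase, moved in opposite directions. Hmgb2 measured 14.0 and 19.1 CPM in normal and 31.6 and 32.5 CPM in ischemic sections (0.96 ± 0.14, edgeR adjusted p = 0.000326). Stmn1, a microtubule destabiliser, measured 81.6 and 61.0 against 45.5 and 43.8 CPM (-0.68 ± 0.14, edgeR adjusted p = 0.00234). Neither overlapped between conditions.

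Summed over the 25 S phase genes, the level was 179.5 and 180.5 CPM in normal and 364 and 359 CPM in ischemic sections, a ratio of means of 2.01. Summed over the 18 core mitosis genes, it was 21.4 and 25.7 CPM in normal and 29.1 and 30.6 CPM in ischemic sections, a ratio of 1.27 (1.51 without TMM scaling), from 791, 710, 989 and 876 UMIs. The S phase sum was therefore 8.37 and 7.02 times the mitosis sum in normal and 12.5 and 11.8 times that sum in ischemic sections. These sums carry no test. With Stmn1 and Hmgb2 added, the log2 ratio of the mitosis sum turned from 0.34 to -0.065.

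The change of the mitosis genes over whole sections joined a large rise in a few spots to falls of some genes elsewhere. In ischemic sections 1 and 2, 430 of 989 and 379 of 876 UMIs of the 18 core mitosis genes lay in the 107 and 131 spots called pelvis, or 43.5% and 43.3%. These spots held 4.00% and 4.29% of all UMIs. In normal sections 1 and 2, the 131 and 135 pelvis spots held 6.45% and 10.0% of the mitosis UMIs and 2.45% and 3.97% of all UMIs. S phase genes did not gather in this way: pelvis spots held 5.88% and 7.47% of their UMIs in ischemic and 4.59% and 7.83% in normal sections.

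**Figure D3:**
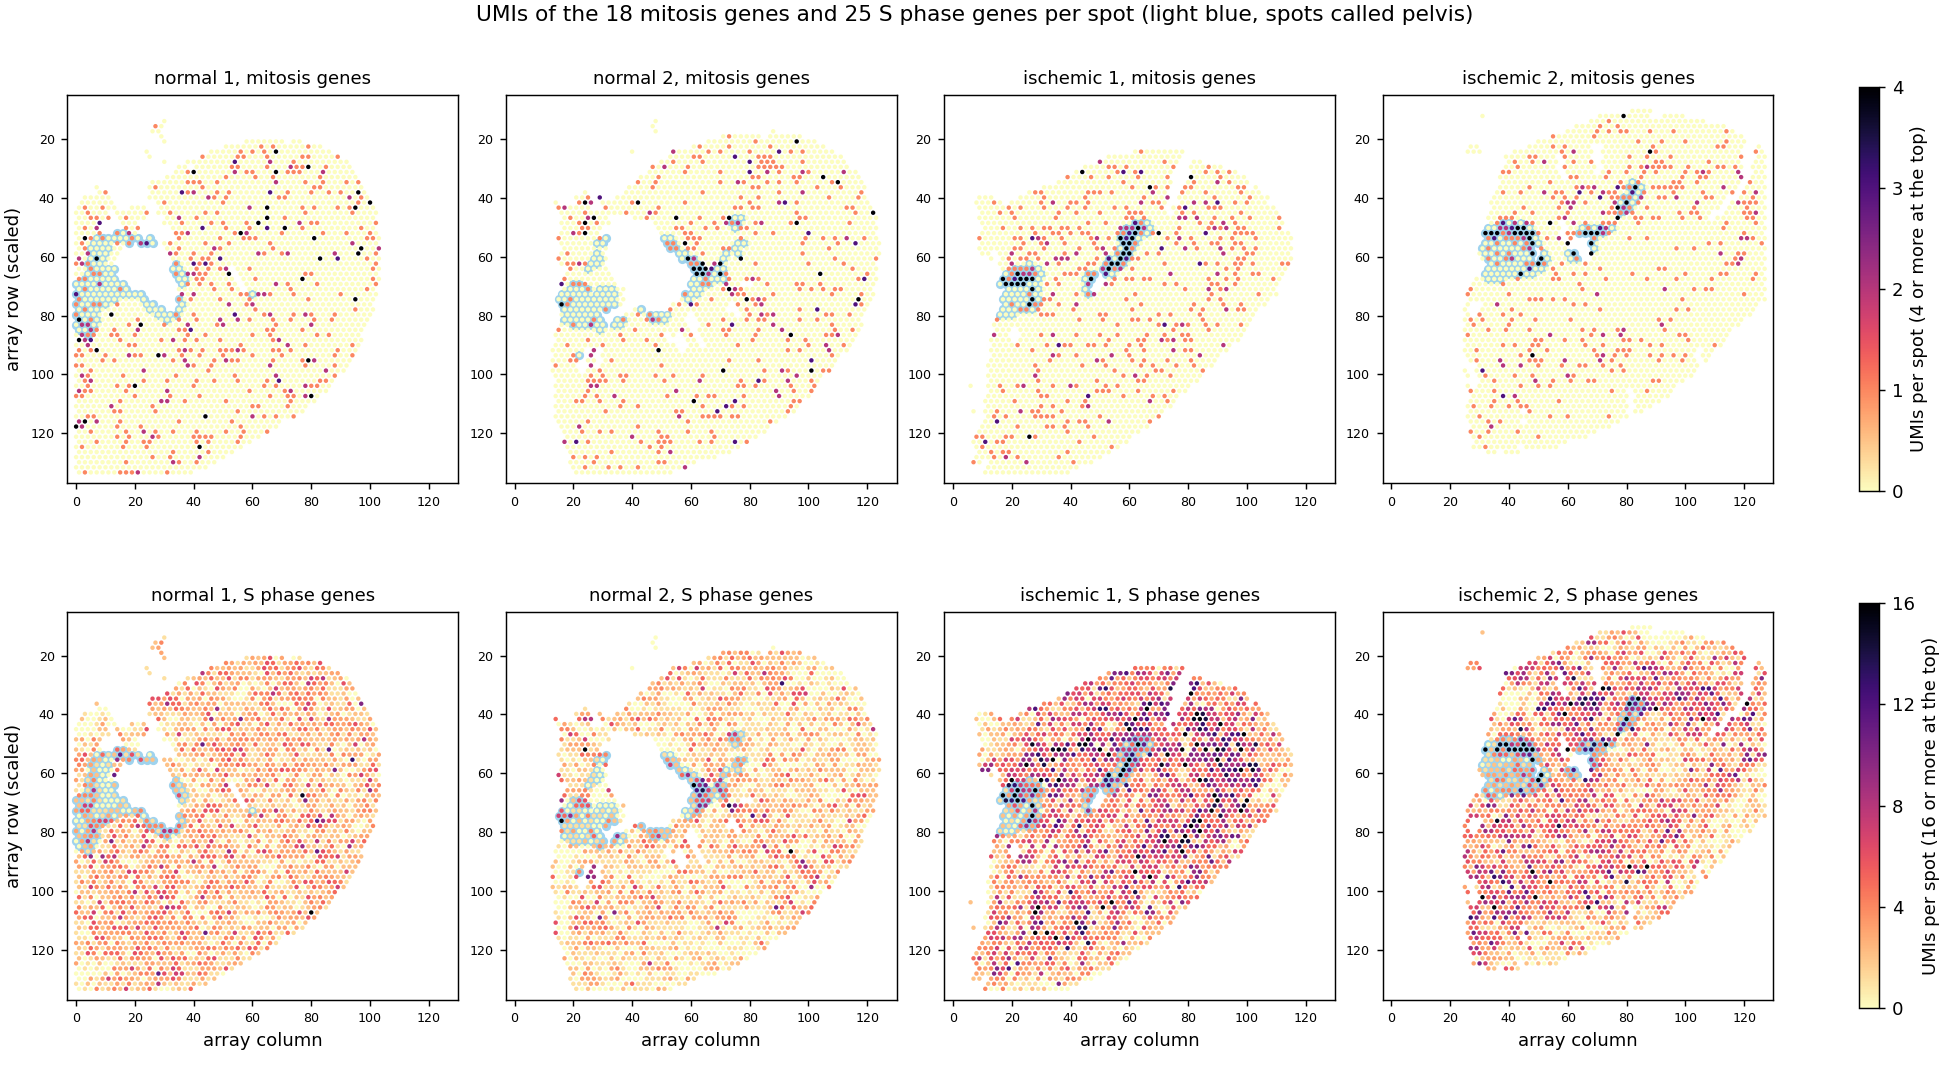
Each point is a tissue spot at its place on the array, coloured by its UMIs of the 18 mitosis genes (top) or the 25 S phase genes (bottom), with spots called pelvis on light blue. In the ischemic sections the dark mitosis spots line up in narrow bands within the pelvis spots, while S phase UMIs are spread over the tissue.

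The gathering was seen gene by gene. For Mki67, 40 of 60 and 44 of 60 UMIs of ischemic sections 1 and 2 came from pelvis spots, against 9 of 63 and 9 of 74 in normal sections. For Ccnb1 the counts were 18 of 25 and 14 of 25 against 3 of 20 and 3 of 24. For Top2a they were 20 of 54 and 34 of 66 against 1 of 44 and 5 of 47. Over the 18 core mitosis genes, the median share was 43.2% and 48.97% in ischemic and 6.45% and 10.5% in normal sections. Tpx2 and Aurka had the lowest shares in the ischemic sections, with 13 of 92 and 9 of 96 UMIs for Tpx2 and 10 of 52 and 6 of 38 for Aurka. Cdk1 lay between, with 38 of 141 and 42 of 110. Over the 25 S phase genes the median share was 5.82% and 7.46% in ischemic sections, with Tk1 at 34 of 215 and 34 of 152.

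**Figure D4:**
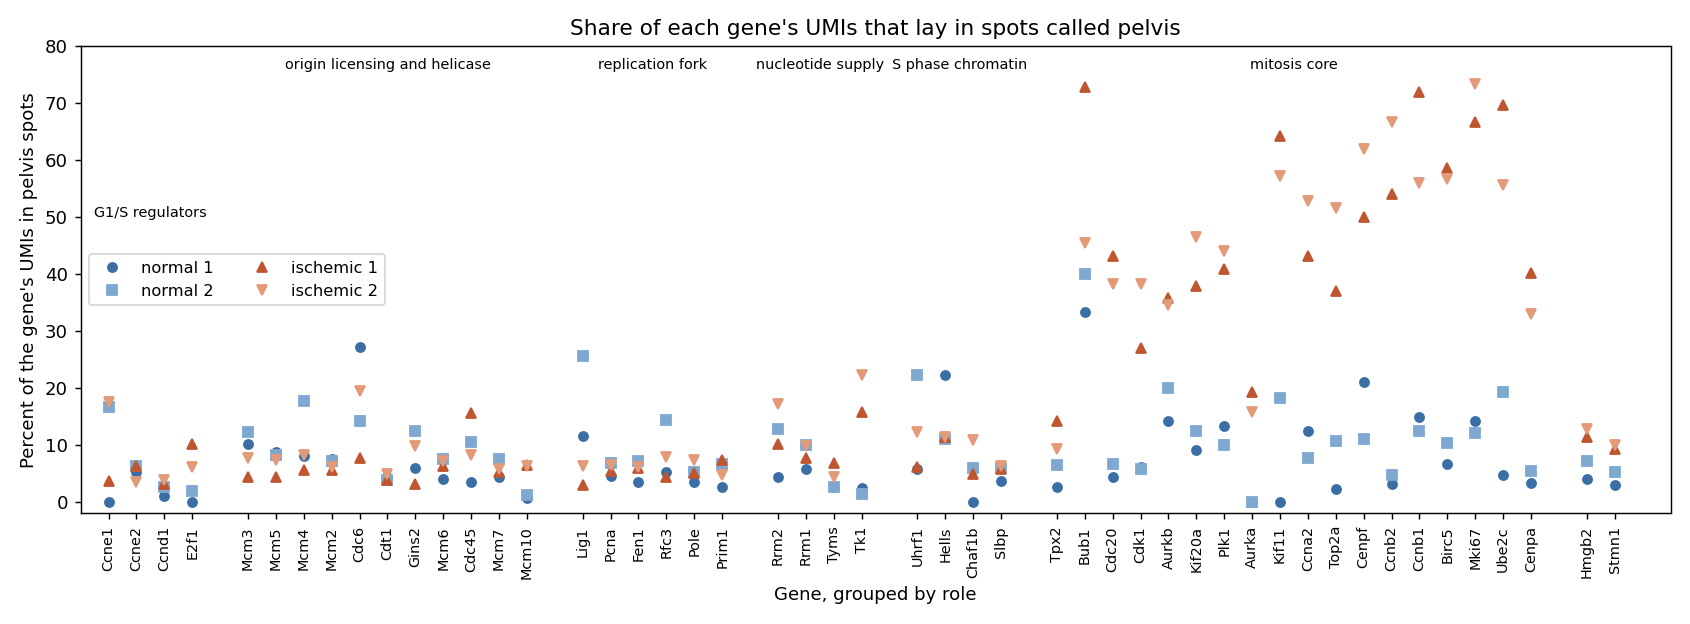
Percent of each member's UMIs that came from pelvis spots, for each of the 4 sections (blue, normal; orange, ischemic), with genes in the order of the fold change plot. The ischemic points of the mitosis genes reach 73.3% while those of S phase genes stay at or below 22.4%.

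Within pelvis spots, mitosis genes rose with ischemia. The mitosis sum was 42.4 and 51.7 CPM in normal and 299 and 269.7 CPM in ischemic pelvis, a ratio of means of 6.04, and the S phase sum was 253 and 284 against 506 and 547 CPM, a ratio of 1.96. Of 34 members that passed the filter there, 23 were higher and 0 lower (edgeR), against 8.62% higher and 11.7% lower of 10201 genes. With no filter 30 of all 49 members were higher, against 6.97% of 17322 genes. Members low in normal pelvis could pass the filter only through the ischemic sections, so the count without a filter covers the whole list. The count of 23 lay between 19 and 24 when each section was left out in turn.

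Mki67 measured 7.49 and 6.56 CPM in normal and 27.8 and 31.3 CPM in ischemic pelvis (log2 fold change 2.08 ± 0.34, edgeR adjusted p = 0.00115). Cdk1 measured 3.33 and 2.19 against 26.4 and 29.9 CPM (3.34 ± 0.42, edgeR adjusted p = 0.000221). Top2a measured 0.832 and 3.64 against 13.9 and 24.2 CPM (2.99 ± 0.57). Ccnb1 measured 2.50 and 2.19 against 12.5 and 9.96 CPM (2.24 ± 0.51). In all 4 both ischemic values lay above both normal values, and the share of all genes separated in this way was not counted. Further genes were chosen after their values were seen. Birc5, the survivin gene of the chromosomal passenger complex, had 6 and 9 UMIs against 58 and 47 (2.66 ± 0.35). Cenpa, lower over whole sections, had 6 and 8 against 37 and 28 UMIs (2.06 ± 0.38). Aurka had 0 and 0 against 10 and 6 UMIs. Rrm2 measured 3.33 and 8.74 against 22.2 and 28.5 CPM (2.03 ± 0.42), and Tk1, not called over whole sections, 3.33 and 1.46 against 23.6 and 24.2 CPM (3.32 ± 0.46).

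The change in the pelvis differed from that in the cortex. In a model with the section as a block, the difference between pelvis and cortex rose with ischemia for 16 members and fell for 1, Lig1, of 48 tested, against 3.79% and 6.14% of 14258 genes. The change of that difference was 4.01 ± 0.67 for Mki67 (edgeR adjusted p = 0.000519), 4.01 ± 0.87 for Ccnb1, 3.76 ± 0.74 for Top2a and 3.004 ± 0.60 for Cdk1. Of the 16, 12 were core mitosis genes, and the others were Ccnd1, Hmgb2, Rrm2 and Tk1. The count of 16 was 6 without ischemic section 1 and 9 without ischemic section 2.

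In normal sections some members already differed between pelvis and cortex, as did many genes in general. Of 48 tested, 13 were higher and 4 lower in pelvis (edgeR, section as a block), against 24.0% and 23.3% of 14258 genes. The share of higher members was near that of all genes, so it is no result about the members as a group. Mcm4 was higher by 1.83 ± 0.31 and Rfc3 by 1.17 ± 0.27 on the log2 scale, while Ccnd1 stood at -1.51 and Tk1 at -1.78. These genes were chosen after their values were seen. In ischemic sections 34 were higher and 1, Ccnd1, lower, against 16.8% and 20.3% of genes. The change between the conditions is what the interaction tested.

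Spots called pelvis differed in their markers between conditions. The 6 pelvis markers summed to 6204 and 7876 unscaled CPM in normal pelvis and to 767 and 1306 in ischemic pelvis. Upk1a, Upk1b, Upk2, Upk3a and Psca, markers of the upper urothelium, were lower in ischemic pelvis, while Krt5, a keratin of basal epithelium, measured 36.6 and 54.6 against 59.1 and 91.8 CPM and was not called. Leukocyte markers summed to 599.9 and 865 unscaled CPM in normal and 694 and 349 in ischemic pelvis, and injured tubule markers to 1265 and 1178 against 7771 and 11474. Inner stripe markers summed to 1632 and 1938 unscaled CPM in normal and 4001 and 3422 in ischemic pelvis. Of the 6 injured tubule markers, 4 were higher, 1 lower and 1 not called there, against 8.62% higher and 11.7% lower of 10201 genes. Without the leukocyte-rich spots, 20 of 30 members tested in the pelvis were higher and 0 lower, against 8.87% and 11.5% of 9289 genes. The share of pelvis spots that remained without smoothing over neighbours was 67.2% and 57.0% in the normal against 28.04% and 26.7% in the ischemic sections, and 32 of 38 members tested were higher and 0 lower under that assignment, against 8.08% and 9.22% of 9291 genes. The part of tissue composition in the rise was not tested.

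Spots with several mitosis genes at a time were few. After thinning each spot to 5000 UMIs, at least 3 different core mitosis genes were seen in 8 of 2495 spots (0.321%, 95% Clopper-Pearson interval 0.139 to 0.631) and 20 of 2084 spots (0.960%, 0.587 to 1.48) of normal sections 1 and 2. In ischemic sections they were seen in 17 of 2207 (0.770%, 0.449 to 1.23) and 22 of 2118 spots (1.04%, 0.652 to 1.57). The intervals cover counting error only, and the conditions overlapped. Thinning left out 121 and 598 shallower spots of the normal and 194 and 495 spots of the ischemic sections. Unthinned, the shares were 1.61% and 1.86% for normal against 1.75% and 1.34% for ischemic sections.

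After ischemia most of these spots were among the spots called pelvis. In ischemic sections 15 of 17 and 16 of 22 were pelvis spots, and in normal sections 1 of 8 and 1 of 20. Of ischemic pelvis spots 16.9% (95% interval 9.75 to 26.3) and 15.2% (8.97 to 23.6) held at least 3 mitosis genes after thinning, against 1.39% (0.0352 to 7.50) and 1.299% (0.0329 to 7.02) of normal pelvis spots. In the ischemic pelvis, spots with several mitosis genes held more of the pelvis markers than the other pelvis spots, at 2095 against 409.7 unscaled CPM in section 1 and 2914 against 877 in section 2. They also held more S phase UMIs, at 998 against 495 and 1159 against 591 unscaled CPM. In normal sections, T cell markers stood at 45.02 and 246 unscaled CPM in the spots with several mitosis genes and at 10.5 and 20.7 in the rest, and in ischemic sections at 11.8 and 3.55 against 3.73 and 3.86. Over all zones of normal sections, spots with several mitosis genes also held more S phase UMIs, at 293 and 521 against 148 and 174 unscaled CPM. Pelvis markers stood at 1531 and 1361 against 185 and 511 there.

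Outside the pelvis most S phase genes still rose, and 5 mitosis genes fell. With pelvis spots left out, 27 members were higher and 7 lower of 47 tested, against 31.9% and 30.4% of 15171 genes. Among the 16 core mitosis genes tested, 2 were higher and 5 lower, with a median log2 fold change of -0.28 against 0.04 over all genes. Their share of lower genes was near that of all genes, so it is no result about mitosis genes as a group. Bub1 and Kif11 no longer passed the filter. With the neighbours of pelvis spots left out as well, 27 members were higher and 8 lower, against 32.9% and 31.1% of 15083 genes. Mki67 was lower by 1.71 ± 0.34 on the log2 scale (edgeR adjusted p = 0.00139), and Cenpa, Ube2c, Birc5 and Ccnb2 made up the other falls. Cdk1 (0.66 ± 0.24, edgeR adjusted p = 0.0314) and Tpx2 (1.40) stayed higher. The mitosis sum was 20.6 and 24.4 CPM in normal and 16.9 and 18.1 CPM in ischemic sections, a ratio of means of 0.780. The S phase sum was 176 and 175 against 353 and 347 CPM, a ratio of 2.00, so its rise was as large without pelvis spots. Over whole sections the mean TMM scaling differed by 0.28 on the log2 scale between conditions, which lowered the fold changes by about that amount. This value was not taken from the fits without pelvis spots. Without TMM scaling the mitosis sum outside the pelvis was 17.0 and 24.1 against 18.8 and 20.004 CPM (ratio 0.943). It overlapped between conditions, while the S phase ratio was 2.43. The 5 genes that fell lay below 0 by more than the 0.28 of whole sections.

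**Figure D5:**
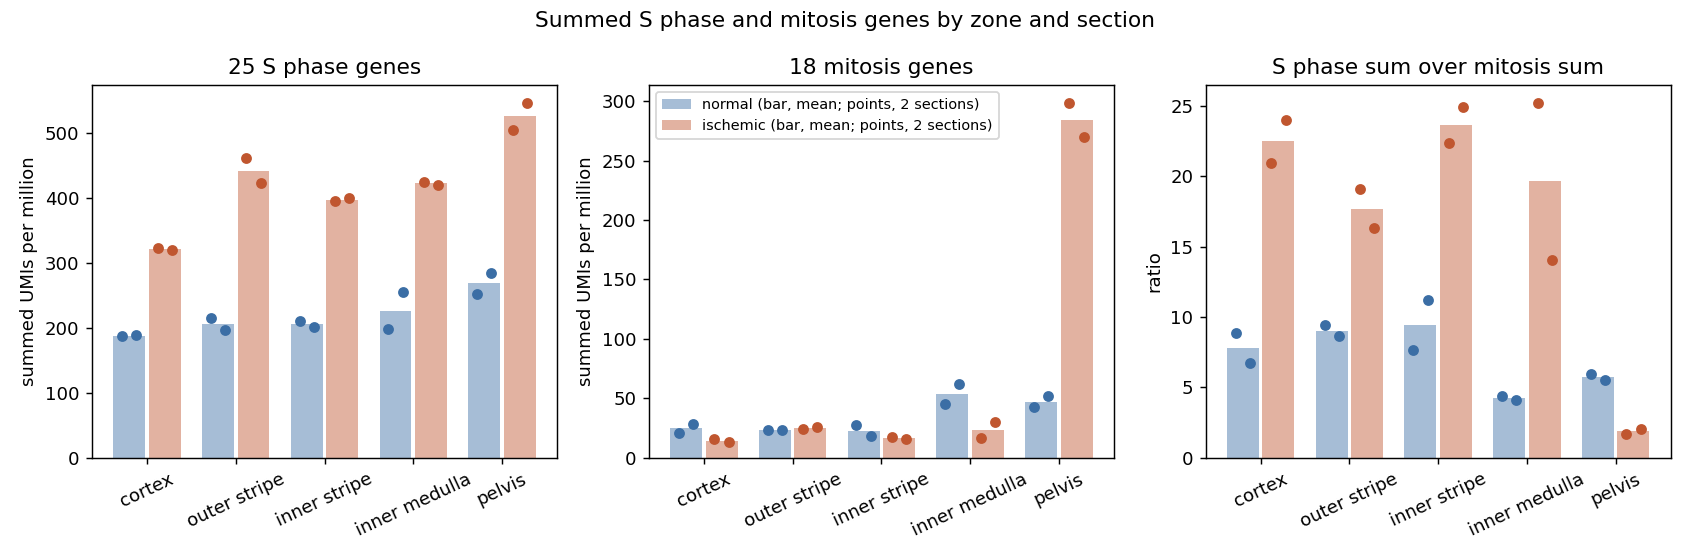
Summed level of the 25 S phase genes, of the 18 mitosis genes and their ratio in each zone, with bars for the mean and points for the 2 sections of each condition. S phase sums are higher in the ischemic sections in all 5 zones, and the mitosis sum of the ischemic pelvis (299 and 269.7 CPM) stands apart from every other zone.

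In the cortex, 20 members were higher and 5 lower of 38 tested, against 25.6% and 24.2% of 13549 genes. Of the 18 core mitosis genes, 8 passed the filter there. With no filter 21 of all 49 members were higher and 5 lower, against 3794 and 3494 of 19597 genes. The S phase sum was 187 and 188 CPM in normal and 323 and 319 CPM in ischemic cortex. The mitosis sum was 21.1 and 27.99 against 15.4 and 13.3 CPM. The genes that fell were Mki67, Birc5, Cenpa, Ube2c and Mcm10. Mki67 had 25 and 28 UMIs in normal and 8 and 3 in ischemic cortex (-1.92 ± 0.48, edgeR adjusted p = 0.00392), and Birc5 had 47 and 42 against 8 and 10. Cdk1 measured 2.02 and 2.11 against 2.66 and 2.66 CPM there and was not called.

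The outer stripe, where the straight proximal tubule lies, had 26 members higher and 5 lower of 40 tested, against 34.4% and 32.8% of 13328 genes. The S phase sum was 216 and 197 CPM in normal and 462 and 423 CPM in ischemic outer stripe. Uhrf1 had 8 and 3 UMIs against 144 and 93 (log2 fold change 4.46 ± 0.32). Rrm2 measured 2.02 and 2.54 against 14.2 and 10.98 CPM (2.52 ± 0.24). Cdk1 passed the threshold there, at 1.73 and 1.14 against 4.67 and 3.98 CPM (1.59 ± 0.33, edgeR adjusted p = 0.000258), while Mki67 had 23 and 19 UMIs against 3 and 7 (-1.98 ± 0.48). Whether the change of either gene differed between outer medulla and cortex was tested as an interaction, which called neither. The mitosis sum was 22.9 and 22.8 against 24.2 and 25.9 CPM. Outer stripe markers in spots called outer stripe summed to 3122 and 3016 unscaled CPM in normal and 462 and 491 in ischemic sections. Inner medulla markers in them summed to 919 and 929 against 6286 and 6209. Spots called outer stripe thus differed in their markers between conditions, and the part of this shift in the changes was not tested. Without ischemic section 1, 3 rather than 5 members were lower.

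In the inner stripe 16 members were higher and 2 lower of 26 tested, against 19.8% and 22.6% of 12509 genes. In the inner medulla 10 were higher and 3 lower of 25 tested, against 11.7% and 17.9% of 11307 genes. The S phase sum was 211 and 202 against 395 and 400.1 CPM in the former and 198 and 255 against 425 and 421 CPM in the latter. The mitosis sum was 27.6 and 18.05 against 17.7 and 16.05 CPM in the inner stripe and 45.5 and 61.9 against 16.8 and 30.0 CPM in the inner medulla. The fewest mitosis UMIs behind any of these sums were 50. Spots called inner medulla made up 4.59% and 7.68% of normal against 12.1% and 10.9% of ischemic sections. Inner medulla markers in them summed to 8325 and 8043 unscaled CPM in normal and 4102 and 3900 in ischemic sections. Inner stripe markers in them summed to 2702 and 5322 against 5496 and 5357. The part of this shift in the change of the mitosis sum was not tested. Without ischemic section 2 the count of higher members was 10 in the inner stripe and 5 in the inner medulla, and without ischemic section 1 it was 3 in the inner medulla. Members lower in the inner stripe numbered 1 without either ischemic section and 5 without normal section 2. In the inner medulla they numbered 0 without ischemic section 1 and 5 without normal section 1.

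The change with ischemia differed between outer medulla and cortex for 4 of 48 members, against 7.12% of 14258 genes for larger and 15.1% for smaller differences. The difference between the zones rose for Tk1 by 1.31 ± 0.34 (edgeR adjusted p = 0.00715), for Rrm2 by 1.12 ± 0.31 (0.0133) and for Pcna by 0.43 ± 0.13 (0.0231). In the cortex Tk1 measured 7.87 and 7.86 CPM in normal and 6.96 and 4.17 CPM in ischemic sections. In the outer stripe it measured 2.69 and 4.95 against 5.39 and 5.07 CPM. Stmn1 went the other way, by -1.40 ± 0.17 (3.2e-06). Its level was 64.3 and 50.4 against 58.0 and 58.9 CPM in the cortex and 132 and 106 against 48.0 and 46.7 CPM in the outer stripe. Without ischemic section 1 or without ischemic section 2, 0 rises passed the threshold, with adjusted p from 0.0573 to 0.304. Without normal section 1 the adjusted p was 0.120 for Tk1 and 5 rises passed, and without normal section 2 it was 0.0664 for Rrm2 and 2 members fell. With the outer stripe alone in place of the outer medulla, Tk1 (adjusted p = 0.0556) and Pcna (0.114) did not pass. Pcna also did not pass with no section block (0.0758) or with zones assigned without neighbours (0.0774). The marker shift in spots called outer stripe, given above, was not tested for its part in these changes.

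Of 7 genes for CDK inhibitors, which hold the cycle back, 3 were higher and 2 lower of 6 tested, against 31.0% and 29.7% of all genes. Cdkn1a, which encodes p21, measured 5.75 and 5.54 CPM in normal and 49.5 and 50.8 CPM in ischemic sections (log2 fold change 3.15 ± 0.10, edgeR adjusted p = 9.7e-08). Cdkn2b (p15) measured 3.93 and 5.51 against 7.01 and 7.75 CPM (0.65 ± 0.19). Cdkn2d (p19) measured 15.5 and 15.1 against 18.3 and 18.3 CPM (0.25 ± 0.10, edgeR adjusted p = 0.0438). Cdkn1a thus showed the largest change, and the others were under 1.1 in size. Cdkn2c (p18) fell from 13.0 and 13.7 to 6.30 and 6.39 CPM (-1.07 ± 0.12), and Cdkn1c (p57), which podocytes express, from 7.70 and 11.01 to 5.56 and 5.76 CPM (-0.72 ± 0.18). Cdkn1b (p27) measured 6.64 and 9.64 against 9.78 and 11.03 CPM and was not called (0.36 ± 0.18, edgeR adjusted p = 0.106). Cdkn2a had 1, 2, 0 and 1 UMIs in the 4 sections and was left out by the filter. Without normal section 2 Cdkn1b passed (0.61, edgeR adjusted p = 1.2e-05), without ischemic section 2 Cdkn2b did not (0.0880), and Cdkn2d did not pass without normal section 2 (0.0539), ischemic section 1 (0.224) or ischemic section 2 (0.234).

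Other genes of the same steps were counted from lists chosen by function, and these counts are read against the 31.0% higher and 29.7% lower of all genes. Of 45 further S phase genes, 31 were higher and 4 lower of 44 tested, with a median of 0.90. The largest rises were Orc1, of the origin recognition complex (3.39 ± 0.51), and Dscc1, of an alternative clamp loader (2.60 ± 0.43), and Brip1 was among the falls (-1.05 ± 0.28). Of 50 further G2/M genes, 16 were higher and 4 lower of 46 tested, with a median of 0.48. Their share of higher genes was near that of all genes. The largest falls were the kinesin gene Kif20b (-3.09 ± 0.28) and Cenpe (-2.20 ± 0.27). The largest rises were Anln, the anillin gene of cytokinesis (2.35 ± 0.30), and Cks1b (2.27 ± 0.13). In the pelvis 23 of these 50 G2/M genes passed the filter, and 15 of them were higher and 1 lower, against 8.62% and 11.7% of all genes. Genes low in normal pelvis, such as Ckap2 (1 and 1 against 16 and 17 UMIs), could pass the filter only through the ischemic sections. The count therefore does not cover the whole list. Of 6 further G1 cyclins and kinases, 4 were higher and 1, Ccnd3 (-0.33), lower, led by Cdk6 (1.29 ± 0.11) and Cdk2 (1.08 ± 0.16). Of 13 pocket protein and further E2F genes, 6 were higher and 2 lower. E2f7 (1.90 ± 0.52) and E2f3 (1.46 ± 0.19) rose most, and Lin52 (-0.67 ± 0.13) and Rbl2 (-0.48 ± 0.12) fell.

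Leukocyte-rich spots, the 10% of each section with the most leukocyte markers, held 17.8% and 26.2% of the mitosis UMIs when the kidney was normal, against 13.7% and 8.79% after ischemia, with 6.38% to 9.26% of all UMIs. Without them the mitosis sum was 18.9 and 21.0 CPM in normal and 27.4 and 30.3 CPM in ischemic sections, a ratio of means of 1.44, and the S phase ratio was 2.03. Top2a then passed the threshold (0.84 ± 0.29, edgeR adjusted p = 0.0249), and Mki67 stood at 0.27 ± 0.26.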

How the data were processed

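Raw UMI counts per gene and spot were deposited for 4 Visium sections, with no normalization by the authors. The authors made these counts with Space Ranger 1.3.0 (file header) on mm10 (submitters' processing notes). Sums per section, or per zone of a section where it held 20 spots or more, entered edgeR 4.0.16 in R 4.3.3 (TMM, quasi-likelihood test after filterByExpr, Benjamini-Hochberg adjustment over all genes tested, threshold 0.05), with DESeq2 1.42.0 as an alternative. The procedure was tested on simulated data. The outer medulla and pelvis contrasts against cortex used the section as a block. The pelvis contrast was added after seeing the data.

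Spots received the zone with the highest marker score, the mean log CPM (pseudocount 1) of its markers after adding the counts of up to 6 adjacent spots, standardised within the section. A spot was called pelvis when these summed counts held at least 10 UMIs of Upk1a, Upk1b, Upk2, Upk3a, Krt5 and Psca, at a share of UMIs among the section's top 5%. Ischemia lowered many zone markers, so zones after ischemia are less sure. The inner medulla markers instead summed to 1481 and 1543 CPM in normal and 3005 and 3119 CPM in ischemic whole sections. The files of different sections share array barcodes by design, which says nothing of shared cells.

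Depth was 25957128 to 44528078 UMIs per section, so a count of 0 allows up to 3 counts, or 0.0674 to 0.116 CPM. Levels of single genes were not compared with each other, and the S phase over mitosis ratio is a ratio of summed UMIs, with no correction for gene length. No member shared exon sequence on its own strand with another counted gene, and 13 did on the opposite strand. Conditions came from the sample labels.

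The members and gene lists were chosen with earlier results of these data known. By rule, the genes named were the members past the threshold (up to 15 with the largest change in each direction), Ccnd1, Pcna, Mcm2, Mcm5, Mcm6, Rrm2, Mki67, Top2a, Cdk1, Ccnb1, Stmn1, Hmgb2, the 7 CDK inhibitors, members called in the zone interaction and the 2 largest changes in each direction of the other lists. A gene among the largest changes of the other lists is not reported here. Further genes named to complete a list's count were chosen after their values were seen. Alternatives were other size factors, no filter, each section left out, the replicate number as a block, other zone assignments, and leaving out pelvis or leukocyte-rich spots.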

Additional observations from a re-analysis of the deposited data

Results flagged for a closer look

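The change with ischemia of the difference between outer medulla and cortex passed the threshold for 4 of 48 members (edgeR, section as a block). Among all 14258 genes, 7.12% had larger and 15.1% smaller differences, so members were not called more often than genes in general. The change was 0.43 for Pcna, 1.12 for Rrm2 and 1.31 for Tk1, and -1.40 for Stmn1, all on the log2 scale. For Stmn1 the outer medulla stood above the cortex in normal sections (0.76 ± 0.12) and below it in ischemic sections (-0.64 ± 0.12). For Tk1 the outer medulla stood below the cortex in normal sections (-1.45 ± 0.24). Marker levels of spots called outer stripe differed between conditions as given in the report, and their part in these changes was not tested.

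The difference between pelvis and cortex rose with ischemia for 16 members and fell for 1 (Lig1) of 48 tested, against 3.79% and 6.14% of 14258 genes. In normal sections Mki67 stood 1.70 ± 0.52 higher in pelvis than in cortex on the log2 scale, and in ischemic sections 5.71 ± 0.44. Lig1 stood 2.38 ± 0.36 higher in pelvis than in cortex in normal sections. Pelvis marker levels differed between conditions as given in the report, and their part in these changes was not tested.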

How the results depend on the processing

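Of 193 recomputed counts and sums, 160 kept their direction and stayed within the stated range, and of 360 recomputed fold changes of 33 named genes, 324 kept their direction and side of the threshold, 18 lost and 9 gained the call, and 9 turned sign. Turned signs, in genes that were not called, were Mki67 without leukocyte-rich spots (0.27) and without normal section 2 (0.14), Top2a without pelvis spots (-0.34) and also without their neighbours (-0.54), Ccnb1 without normal section 1 (-0.11), without pelvis spots (-1.04) and also without their neighbours (-1.17), and Tk1 without pelvis spots (-0.0033) and also without their neighbours (-0.059). Leaving out pelvis spots, and then also their neighbours, gave 7 and 8 lower members in place of 3. The log2 change of the mitosis sum (0.34) was -0.36 without pelvis spots, -0.065 with Stmn1 and Hmgb2, 0.59 without TMM and 0.67 as a median over genes. The S phase sum (1.01) was 1.27 without TMM, 1.28 as a median and 0.94 with the 4 G1/S regulators, and S phase over mitosis (0.67) was 1.36 without pelvis spots. With zones assigned without neighbours, the inner medulla had 17 higher and 1 lower of 28 members tested, against 2101 and 2469 of 12417 genes. Under that assignment 0 members had a smaller pelvis against cortex difference, against 712 of 14487 genes. For outer medulla against cortex, 5 rises passed with DESeq2 size factors, 6 with no filter and 5 without boundary spots. Over all genes the rises were 1213 of 14258, 1421 of 21330 and 808 of 13603. The calls lost with the outer stripe alone, no section block or zones without neighbours are given in the report. The cause of these shifts was not tested.

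With each section left out in turn, higher members in whole sections numbered 23 to 34 and lower members 2 to 3. The log2 change of Mki67 lay between -0.47 and 0.14 and that of Ccnb1 between -0.11 and 0.53. In the outer stripe lower members numbered 3 to 5, in the inner stripe higher members 10 to 20 and lower members 1 to 5, and in the inner medulla higher members 3 to 14 and lower members 0 to 5. Larger outer medulla against cortex differences numbered 0 to 5 and smaller ones 1 to 2, and larger pelvis against cortex differences 6 to 13 and smaller ones 0 to 1. A section left alone in its condition was assumed to vary like the other condition.

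The labels share replicate numbers 1 and 2 between conditions, but nothing says that a number marks a shared source. Deviations of same-numbered sections correlated at 0.219 over genes. With the replicate number as a block, 34 members were higher and 3 lower in whole sections, against 5197 and 4892 of 15305 genes. By zone the counts were 21 and 5 for cortex, 26 and 5 for outer stripe, 17 and 2 for inner stripe, 13 and 3 for inner medulla, and 23 and 0 for pelvis. Over all genes they were 3772 and 3534 of 13549 for cortex, and 4710 and 4460 of 13328 for outer stripe. For inner stripe they were 2579 and 2859 of 12509, for inner medulla 1620 and 2303 of 11307, and for pelvis 963 and 1313 of 10201.

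DESeq2 called 24 members higher and 3 lower of 49 in whole sections, against 3613 and 4020 of 15305 genes. Leaving out boundary spots could not be applied to the pelvis, which has no score gap. Leaving out pelvis spots and their neighbours, the pelvis against cortex contrast, leaving leukocyte-rich spots out of the pelvis and leaving pelvis spots out of the sums were chosen after seeing the data. Depth limits the mitosis genes most, several of which had under 30 UMIs in a section.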

Other observations

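Spots with several S phase genes were common in the ischemic sections. After thinning to 5000 UMIs, at least 3 different S phase genes were seen in 640 of 2207 and 599 of 2118 spots of ischemic sections 1 and 2 (29.0% and 28.3%), against 108 of 2495 and 131 of 2084 spots of normal sections (4.33% and 6.29%). The S phase list holds 25 genes and the mitosis list 18, so these shares were not compared with those of mitosis genes.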
